A study of Mus musculus with 8 samples.

Results

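The regions described here are stretches of the mouse genome that lie between annotated genes, away from their promoters, and carried a peak of accessible chromatin in every library of the study. They will be called shared distal regions. ATAC-seq, in which the Tn5 transposase inserts sequencing adapters into DNA that nucleosomes leave exposed, was run on nuclei of the right cerebral cortex of 8 male C57BL/6 mice. In 4 of them bilateral carotid artery stenosis (BCAS) had been made with microcoils of 0.16 mm on the right and 0.18 mm on the left common carotid artery, which lowers blood flow to the forebrain over weeks, and the other 4 had a sham operation. Tissue was taken 3 weeks after surgery, at an age of 14 weeks by the timeline of the study, and each library came from 1 mouse. The data are 8 lists of peaks, one for each mouse, called on the mm10 (GRCm38) build.

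The peaks of the 8 lists on 21 chromosomes (1028949 in all) were merged wherever they shared at least 1 bp, which gave 197916 regions, of which 71712 had a peak in every library. A region was kept when it had a peak in all 8 libraries, was narrower than 2000 bp, and had its midpoint more than 3 kb from any transcription start site (TSS), outside every transcript and more than 300 bp past any transcript end. This left 21558 shared distal regions, 10.9% of all merged regions and 30.1% of those present in every library. The members were therefore chosen by the measured presence of peaks in both groups, and their presence in all libraries is no finding. Regions lost by 1 library were more often lost by BCAS 3 (1782) or sham 1 (1576) than by BCAS 1 (31), the list with the most peaks.

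Distal regions of this kind include enhancers, which bind transcription factors and act on genes at a distance, insulators bound by CTCF, and start sites of unannotated transcripts. An enhancer is open only in cells that hold its factors, so bulk cortex gives a mixture of neurons, glia and vascular cells. A change in the share of nuclei of one cell type and a change of accessibility within nuclei cannot be told apart in such tissue.

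Distal regions fell into many that were found once and many that were found always. Of 65011 distal regions, 12190 had a peak in a single library, between 4154 and 6674 were called in each number of libraries from 2 to 7, and 21562 had one in all 8. Only 4 of the last group were 2000 bp or wider. The shared distal regions had a median width of 563 bp (range 245 to 1908), and 91.6% held exactly 1 peak in every library. Their median distance to the nearest TSS of any gene was 22.8 kb, with 22.9% within 10 kb, 52.6% between 10 and 50 kb, and 11 regions more than 500 kb away. Placing the whole region, in place of its midpoint, outside genes kept 21166 of them (98.2%). They were spread over all chromosomes, from 1853 on chromosome 1 to 408 on chromosome 19 among the autosomes, with 524 on chromosome X and 10 on chromosome Y. Per megabase this was 10.1 on chromosome 12 but 4.83 on chromosome 7 and 3.06 on chromosome X.

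The strength of a region was taken as the fold enrichment that the authors' peak caller gave at the highest summit of a library, and it was ranked as a percentile among all regions called in that library. In every library the shared distal regions were stronger than shared intronic regions and weaker than shared promoters. Their median percentile was 65.2, 73.1, 75.3 and 67.5 across the sham mice and 76.5, 69.5, 66.4 and 66.7 across the BCAS mice (replicates 1 to 4 in this order, as in all lists of values here). The intronic medians ran from 59.3 to 70.9, and the promoter medians from 74.5 to 82.7. The sham and BCAS libraries overlapped throughout, and the longest lists gave the highest percentiles. At the edges of the rule, distal regions missed by 1 library had a median mean percentile of 42.3, against 67.6 for the members. Intergenic regions just outside the TSS limit (2 to 3 kb; 750 regions) had 60.7 and members just inside (3 to 4 kb; 707 regions) had 62.7.

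**Figure D1:**
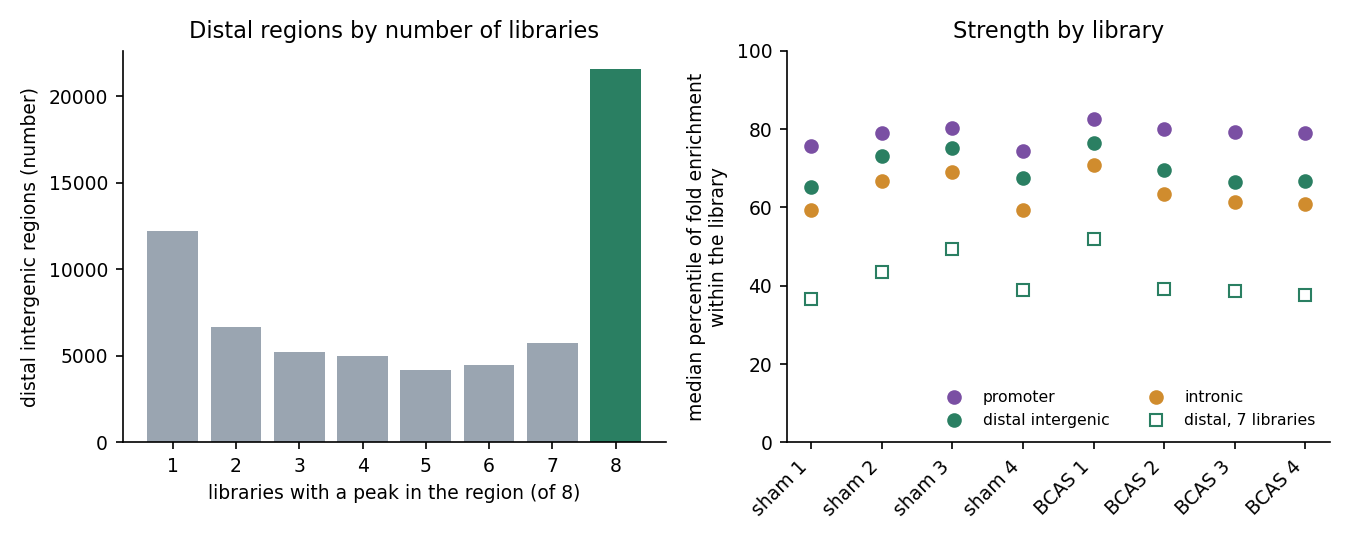
Left, the number of distal intergenic regions (y axis) by how many of the 8 libraries had a peak there (x axis); the bar at 8, in green, holds 21562 regions. Right, the median percentile of fold enrichment within each library (y axis) for promoter, distal and intronic regions with a peak in every library and for distal regions missed by 1 library; the order promoter, distal, intronic was the same in all 8 libraries.

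The windows below are read from GRCm38, plus strand, and each is 101 bases long. They are shown because they are the strongest shared distal regions that hold the recognition sequence of a factor with a known role in cortex or glia. Capitals mark that sequence. CTCF is the insulator protein, AP-1 the Fos and Jun dimer of activity-regulated and stress responses, MEF2 and NEUROD1 are neuronal activators, RFX factors are known from ciliated and neuronal cells, NFI factors from astrocytes, SOX factors from glia and progenitors, and PU.1 is the lineage factor of microglia and macrophages. Each name is that of the nearest protein-coding gene, which need not be a target.
CTCF, near Zxdb, chrX:94865689-94865789: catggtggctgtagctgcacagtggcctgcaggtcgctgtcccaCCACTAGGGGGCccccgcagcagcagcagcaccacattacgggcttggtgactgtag
AP-1, near Kcna4, chr2:107543350-107543450: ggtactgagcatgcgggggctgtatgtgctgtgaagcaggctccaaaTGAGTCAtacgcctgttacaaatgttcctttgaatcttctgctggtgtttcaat
MEF2, near Snx7, chr3:117716946-117717046: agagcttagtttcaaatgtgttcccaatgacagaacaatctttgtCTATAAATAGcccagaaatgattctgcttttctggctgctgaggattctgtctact
NEUROD1, near Lmo7, chr14:102199515-102199615: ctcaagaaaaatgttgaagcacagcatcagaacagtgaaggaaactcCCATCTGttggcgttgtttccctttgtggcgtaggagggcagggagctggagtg
RFX, near Cdh20, chr1:102628263-102628363: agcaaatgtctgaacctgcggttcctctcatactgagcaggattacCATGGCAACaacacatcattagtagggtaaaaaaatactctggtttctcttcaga
NFI, near Dsel, chr1:113297986-113298086: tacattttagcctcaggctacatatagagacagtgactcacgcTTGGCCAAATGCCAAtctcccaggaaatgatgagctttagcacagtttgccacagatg
SOX, near Lmo7, chr14:102199535-102199635: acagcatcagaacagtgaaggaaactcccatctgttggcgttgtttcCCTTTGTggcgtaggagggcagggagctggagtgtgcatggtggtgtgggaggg
PU.1, near Rab28, chr5:40953120-40953220: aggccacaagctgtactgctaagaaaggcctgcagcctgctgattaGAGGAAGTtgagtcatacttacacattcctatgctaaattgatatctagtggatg

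These 8 windows came from 7 regions, since the region near Lmo7 holds both the NEUROD1 and the SOX sequence. The nearest protein-coding TSS was between 130 kb (Snx7) and 2140 kb (Cdh20) away, while TSSs of other annotated transcripts lay closer to some, 8.78 kb away at the NFI region near Dsel. Their mean percentiles ran from 96.7 for the NFI region to 99.98 for the Lmo7 region. In the CTCF region near Zxdb the deposited fold enrichment was 20.9, 22.5, 23.3 and 20.2 in the sham and 21.9, 22.5, 20.9 and 21.5 in the BCAS libraries. The PU.1 region near Rab28 had 23.1, 19.6, 23.2 and 21.8 in the sham and 21.4, 22.6, 21.6 and 23.1 in the BCAS libraries. Both regions overlapped between the groups, and none of the 7 passed the test described below (adjusted p from 0.315 to 0.977).

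The sequence around the median summit (201 bases, both strands) was searched for 20 such motifs. None of them was found in 43.4% of the shared distal regions. AP-1 (TGACTCA) was found in 3081 (14.3%, 95% Wilson interval 13.8 to 14.8), NEUROD1 (CAGATGG) in 2526 (11.7%) and the E-box CAGCTG in 4127 (19.1%). CTCF was present in 952, 4.42% (4.15 to 4.70), against 3.32% of shared intronic regions, 2.05% of shared promoters and 2.45% of distal regions found in 1 to 7 libraries. The summits of the CTCF holders varied less in position between libraries, with a median SD of 16.4 bp against 27.4 bp for all shared distal regions. SP1 (GGGCGGG), the GC-box of promoters, was in 3.38% of shared distal regions but 32.1% of shared promoters, and CRE (TGACGTCA), the target of the cAMP-responsive factor CREB, in 0.320% and 2.22%. PU.1 (GAGGAAGT) ran the other way from CTCF: it was in 418 shared distal regions, 1.94% (1.76 to 2.13), and in 3.24% of the distal regions found in 1 to 7 libraries (3.07 to 3.41). The intervals cover counting error only, neighbouring regions are not independent, and a match of letters does not show that a factor was bound.

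**Figure D2:**
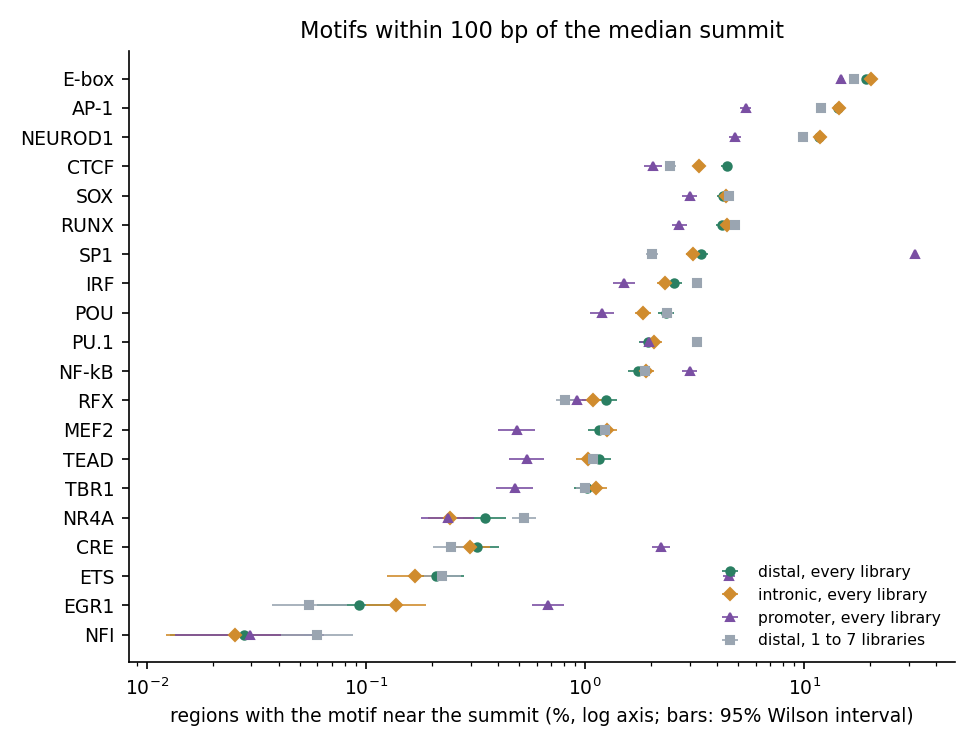
Share of regions that hold each motif within 100 bp of the median summit (x axis, percent, log scale) with 95% Wilson intervals, for distal, intronic and promoter regions with a peak in every library and for distal regions with a peak in 1 to 7. CTCF stands highest in the shared distal regions (4.42%), while SP1, CRE, ETS and EGR1 stand highest in promoters.

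In base composition the shared distal regions were close to intronic ones. The 201-base windows had a median GC content of 48.8%, against 49.3% in shared intronic regions and 61.7% in shared promoters, and held a median of 2 CpG dinucleotides against 12 in promoters. A median of 1.99% of the window was repeat-masked, and in 450 members (2.09%) more than 50% was.

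Some of the strongest members were sequences that occur more than once in the genome. Of the 100 strongest (1 chromosome, given with the processing, was left out), with mean percentiles of at least 99.1, 25 windows matched a second place on the chromosomes at 90% identity or more over at least 80% of their length. The strongest without a match to the mitochondrial genome, chr12:3109772-3110209 (nearest protein-coding gene Rab10), was repeat-masked throughout and its window matched at 168 places. The region chr16:98107343-98107861 near A630089N07Rik was an array of the telomere repeat, with 32 copies of TTAGGG in its 201 bases and 963 matches. Its fold enrichment was 19.8, 22.5, 23.9 and 23.6 in the sham and 25.4, 25.8, 24.3 and 23.7 in the BCAS libraries, and the difference did not pass the test (adjusted p = 0.157). The regions near Igf2bp3 and Cdh20, with mean percentiles of 99.97 and 99.96, each matched at 3 places. By contrast, the regions near Hic2 (chr16:17222132-17222609) and Lmo7 (chr14:102199372-102199906) were found once and not or hardly repeat-masked (9.95% and 0%).

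Stretches of the nuclear genome that resemble the mitochondrial genome were rare but strong. Only 5 shared distal regions held a match of 50 bp or more, and 4 of these were among the 100 strongest. They lay near Abcb11, G6pd2, Nxph1 and Galc, with matches of 129, 362, 311 and 365 bp at 100%, 97.8%, 95.8% and 99.7% identity. The 5th, near Fhl4, had a match of 213 bp at 88.7% identity and a mean percentile of 79.5. The part of mitochondrial reads in these values was not tested. The window of the strongest is printed with the 129 bases that are identical to the mitochondrial genome (chrM:11514-11642, reverse strand) in capitals.
Abcb11, chr2:69355504-69355704: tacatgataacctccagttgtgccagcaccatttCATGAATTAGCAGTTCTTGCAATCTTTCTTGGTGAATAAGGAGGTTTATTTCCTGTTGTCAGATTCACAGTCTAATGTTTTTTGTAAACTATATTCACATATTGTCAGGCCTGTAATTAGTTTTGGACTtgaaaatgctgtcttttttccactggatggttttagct
Its fold enrichment was 31.6, 30.0, 32.3 and 30.6 in the sham and 31.4, 32.0, 31.7 and 32.1 in the BCAS libraries, nearly the same in all mice.

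Most shared distal regions stood alone: 55.3% had no other member within 12.5 kb between midpoints, and 3.43% were in chains of 5 or more joined at that distance. They had 6892 nearest protein-coding genes in all, with a median of 2 regions each, and 378 genes had 10 or more. Leaving out that chromosome, the most were nearest to Auts2 (44 regions), a regulator of neuronal development, and Tbl1xr1 (40), a subunit of nuclear corepressor complexes. They were followed by Btbd3 (30), a regulator of dendrite orientation, Stim2 (29), a calcium sensor of the endoplasmic reticulum, Galc (28), a lysosomal enzyme of myelin lipid breakdown, and Brinp1, D3Ertd751e, Khdrbs3, Sel1l and Zfat (26 each). The 44 regions of Auts2 spanned chr5:131677502-133311733, at a median of 172 kb from its TSS. Among the other genes just named this median ran from 212 kb (Btbd3) to 628 kb (Galc). The longest chain held 11 regions over 68.8 kb (chr4:138493545-138562343), next to Camk2n1, an inhibitor of the kinase CaMKII, and Vwa5b1. The member farthest from any TSS lay at chr4:77586624-77587100, 625 kb away, with a mean percentile of 78.8.

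Peaks at the TSSs of 8 gene lists, most of 10 markers of 1 cell type, place the tissue. In the cortex lists, 7 of 10 genes of excitatory neurons, 5 of 10 of inhibitory neurons, 10 of 10 activity-regulated genes, 7 of 10 of astrocytes, 8 of 10 of oligodendrocytes, 7 of 10 of microglia and 4 of 10 of endothelial and mural cells had a peak within 500 bp of a TSS in every library. Of 10 genes of other tissues (Alb, Myod1, Ins2 and others), 0 had one. The lists had 27, 14, 22, 57, 9, 10 and 33 shared distal regions nearest to their genes in the same order, and the genes of other tissues had 5. Of the astrocyte regions, 23 were nearest to Sox9, the glial transcription factor, and 10 each to Gja1 and Slc1a3. Of the endothelial and mural ones, 22 were nearest to Cdh5, the adhesion molecule of endothelial junctions. The strongest neighbours were those of activity-regulated genes, with a median mean percentile of 76.8, and the weakest those of microglia (54.8) and oligodendrocytes (55.6). The 5 regions of the other tissues had 62.9, above those of excitatory (61.0) and inhibitory (58.8) neurons. Strength therefore did not set the cortex lists apart from the genes of other tissues.

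The strongest region of each list overlapped between the groups, except beside Sall1 and Dlx2. Near Neurod1 (chr2:79499297-79499693) the fold enrichment was 15.2, 20.1, 18.1 and 17.9 in the sham and 24.1, 19.7, 17.0 and 19.7 in the BCAS libraries. Near Nr4a1 (chr15:101246067-101246863), an immediate early gene, it ran from 11.2 to 15.5 in the sham and from 13.0 to 15.1 in the BCAS libraries. Near Sox9 (chr11:112470224-112471168) the ranges were 13.6 to 16.5 and 14.8 to 15.9, and near Mog (chr17:37028288-37029252), a myelin protein, 11.6 to 15.0 and 12.1 to 15.2. Near Cdh5 (chr8:103582991-103583512) they were 9.3 to 14.6 and 11.3 to 14.3, and near Pax1 (chr2:147454588-147455226), of the other tissues, 7.2 to 12.6 and 7.13 to 9.85. The Cdh5 region lay 518 kb upstream of that gene, with the TSS of another annotated transcript 19.6 kb away.

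The comparison of BCAS with sham asks which shared distal regions gained or lost strength after 3 weeks of hypoperfusion. The log2 fold enrichment of all 71712 regions with a peak in every library was quantile normalized and tested with limma, with p-values adjusted over all of them (Benjamini-Hochberg) and a threshold of 0.05. Presence in both groups was required, so a region that opened from nothing or closed fully is not among them. Of the 21558 shared distal regions, 325 (1.51%) were higher in BCAS, against 1.44% of all regions tested, and 202 (0.937%) were lower, against 0.577%. Shared intronic regions had 1.51% and 0.561%, and shared promoters 1.26% and 0.255%. All BCAS libraries stood above all sham libraries in 3.99% of shared distal regions (4.8% of all tested) and below them in 4.47% (3.72% of all tested), and in 307 of the 325 higher and 189 of the 202 lower regions. The median log2 difference (BCAS minus sham) was -0.03 over the shared distal regions, with 90% of them between -0.40 and 0.36. The number of lower regions changed when single libraries were left out, which also leaves fewer mice in the test. It was 82, 88, 57 and 177 without sham 1, 2, 3 or 4, and 274, 127, 83 and 123 without BCAS 1, 2, 3 or 4. The number of higher regions ran from 205 without sham 1 to 388 without sham 4. All 325 and 202 regions kept their sign in each of these fits. They were chosen on the same libraries, so this is no independent support.

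**Figure D3:**
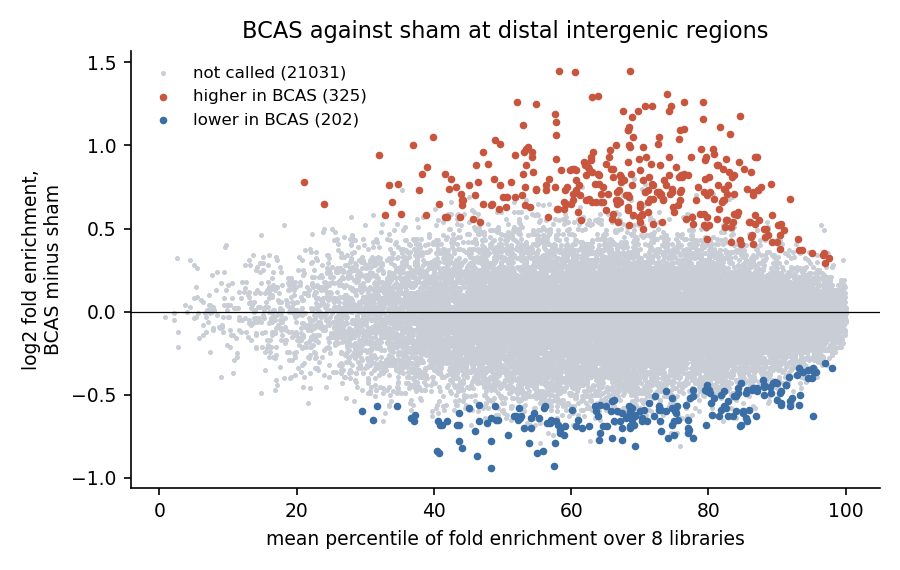
Log2 difference in fold enrichment between BCAS and sham (y axis) against the mean percentile of strength over 8 libraries (x axis) for the 21558 shared distal regions, one point each. The 325 higher regions (red) reach 1.45 and the 202 lower ones (blue) reach -0.94; the rest are grey.

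Base composition moved with the comparison. The higher regions had a median GC content of 53.2%, the lower ones 46.8%, and all shared distal regions 48.8%. In members of 50 to 60% GC 217 were higher and 48 lower, and in those of 40 to 50% GC 79 were higher and 131 lower. The deviation of each library from the mean of all 8 correlated with GC content across members at r from -0.17 to -0.066 in the sham libraries and from 0.011 to 0.19 in the BCAS libraries, a description of members that share their libraries. Normalization within bins of GC content gave 281 higher and 108 lower members. The study's quality table also places the reads of sham 1 to 3 and BCAS 1 in a class of higher GC content than those of the other 4 libraries, and with this class as a covariate 109 were higher and 15 lower. Within the classes (3 sham against 1 BCAS library, and 1 sham against 3 BCAS) the median log2 difference of AP-1 holders was -0.04 and -0.13 and that of PU.1 holders 0.07 and 0.01, values that each rest on an arm of 1 library and were not tested.

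The motif of PU.1 stood out among the regions that rose. Of the 418 shared distal regions that hold it, 46 (11.0%) were higher in BCAS and 2 lower. Over all shared distal regions the shares were 1.51% and 0.937%, and over all regions tested 1.44% and 0.577%. These 46 are 14.2% of the 325 that rose. Over all regions tested, 146 of 1432 with the motif were higher and 7 lower. The median log2 difference of the PU.1 holders was 0.01 against -0.03 for all members. Their median normalized log2 value was 2.89, 2.92 and 2.93 in sham 1 to 3 and between 2.99 and 3.11 in the BCAS libraries. Sham 4 lay just above BCAS 3, so the groups overlapped. Over all members this median was up to 3.03 in the sham and 2.97 to 3.02 in the BCAS libraries. These measures differ on how far the PU.1 holders moved as a whole, and the called rise was limited to 46 of them. The count was 42 with normalization within GC bins, 34 to 58 when any 1 library was left out, and 19 with the class of read GC content as a covariate. NF-kB, the factor of inflammatory signaling, was in 375 members, of which 14 (3.73%) were higher and 4 lower. RUNX (AACCACA) had 25 (2.77%) higher and 9 (0.996%) lower of 904. IRF (GAAA repeated with any 2 bases between), the motif of interferon regulatory factors, had 13 (2.36%) and 4 (0.726%) of 551. SP1 had 23 (3.16%) and 0 of 728, and NR4A (AAAGGTCA) 6 (8%) and 0 of 75. These shares are to be read against 1.51% and 0.937% of all shared distal regions, and 1.44% and 0.577% of all regions tested. GC content differed between holders, with medians of 57.7% for SP1, 52.7% for NF-kB and 48.8% for NR4A. Of the 7844 members of 50 to 60% GC, 217 were higher and 48 lower. At an unadjusted p under 0.05 in limma, 99 PU.1 holders were higher and 41 lower. For the other motifs these counts were 48 and 39 (NF-kB), 90 and 87 (RUNX), 47 and 64 (IRF), 91 and 35 (SP1), and 15 and 3 (NR4A). Over all shared distal regions the shares at that threshold were 7.12% higher and 10.6% lower.

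AP-1 was the most frequent motif among the regions that fell. It was in 66 of the 202 lower regions (32.7%), in 36 of the 325 higher ones (11.1%) and in 14.3% of all members. Of the 3081 members that hold it, 2.14% were lower and 1.17% higher. Over all shared distal regions the shares were 0.937% and 1.51%, and over all regions tested 0.577% and 1.44%. Over all regions tested, 124 of 8383 with the motif were lower and 98 higher. The median log2 difference of the 3081 holders was -0.10. The median normalized log2 value of these members lay between 3.11 and 3.17 in the sham libraries and between 2.97 and 3.10 in the BCAS libraries, without overlap. Over all members the median was up to 3.03 in the sham and 2.97 to 3.02 in the BCAS libraries. AP-1 holders had a slightly lower GC content (median 47.3%). The count of 66 was 34 with normalization within GC bins and 3 with the class of read GC content. It was 28, 26, 16 and 48 without sham 1, 2, 3 or 4, and 83, 45, 23 and 42 without BCAS 1, 2, 3 or 4. POU (ATGCAAAT), a neuronal and glial octamer factor motif, was in 503 members, 11 (2.19%) lower and 5 (0.994%) higher. These shares are to be read against the same 0.937% and 1.51% of shared distal regions and 0.577% and 1.44% of all tested. Of the 952 CTCF holders, 6 (0.630%) were higher and 2 (0.210%) lower, with a median log2 difference of 0.06.

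**Figure D4:**
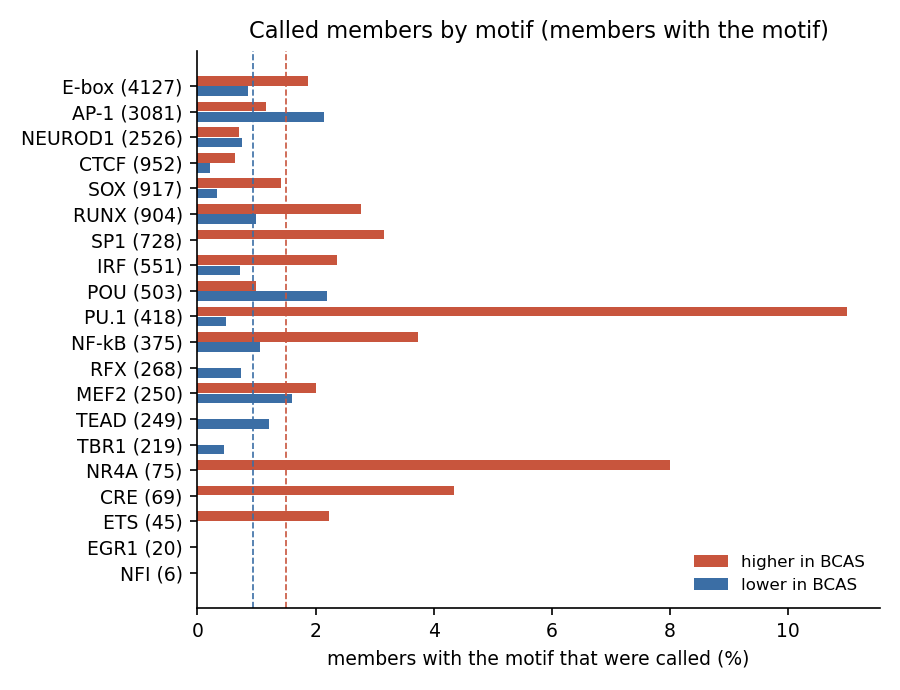
Percent of the shared distal regions with each motif (y axis, number of regions in parentheses) that were higher (red) or lower (blue) in BCAS. Dashed lines give the shares over all shared distal regions, 1.51% and 0.937%; PU.1 reaches 11.0% higher and AP-1 2.14% lower.

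The 6 largest rises with separate groups were found near Syce1l, St14, Gclc, Ppp1r3b, Smim15 and Ifnb1, and their first 2 hold PU.1. The windows of these are given below with every searched motif in capitals, which in the first are PU.1 at 2 places, AP-1 (TGACTCA) and NF-kB, and in the second is PU.1 on the minus strand.
Syce1l, chr8:113656225-113656425: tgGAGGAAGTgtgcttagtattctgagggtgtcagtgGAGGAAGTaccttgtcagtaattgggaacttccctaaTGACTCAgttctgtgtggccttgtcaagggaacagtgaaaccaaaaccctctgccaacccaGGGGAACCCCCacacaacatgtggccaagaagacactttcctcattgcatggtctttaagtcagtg
St14, chr9:31145598-31145798: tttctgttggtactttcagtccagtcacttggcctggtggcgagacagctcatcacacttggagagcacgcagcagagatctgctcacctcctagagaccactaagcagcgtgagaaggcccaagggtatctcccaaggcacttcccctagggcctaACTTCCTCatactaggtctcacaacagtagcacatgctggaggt

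Near Syce1l (chr8:113656108-113656631, 13.1 kb downstream of the TSS), a gene of the synaptonemal complex family, the fold enrichment was 4.80, 6.15, 6.13 and 5.51 in the sham and 19.1, 14.3, 13.2 and 14.6 in the BCAS libraries. All BCAS libraries were far above all sham libraries (log2 difference 1.45 ± 0.13 SE, adjusted p = 4.05e-05). Near St14 (chr9:31145430-31145904, 13.8 kb upstream), which encodes the membrane protease matriptase, it was 5.47, 4.85, 4.64 and 3.92 in the sham and 13.1, 12.5, 12.5 and 12.7 in the BCAS libraries (1.45 ± 0.13, adjusted p = 4.71e-05). The BCAS values at this region were almost identical to each other.

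Near Gclc (chr9:77828413-77829004, 74.2 kb downstream), the catalytic subunit of glutathione synthesis, it was 4.40, 4.21, 4.09 and 7.55 in the sham and 16.7, 13.6, 12.2 and 11.2 in the BCAS libraries (1.44 ± 0.20, adjusted p = 0.000796), with sham 4 above the other sham libraries. Near Ppp1r3b (chr8:35394109-35394526, 18.6 kb downstream), a glycogen-targeting subunit of protein phosphatase, the values were 5.60, 7.12, 5.11 and 7.84 against 17.8, 14, 16.7 and 14.5 (1.31 ± 0.15, adjusted p = 0.000217). Near Smim15 (chr13:107619315-107619945, 425 kb upstream), which codes for a small membrane protein, they were 5.20, 5.82, 5.79 and 4.49 against 14.3, 12.7, 11.4 and 13.4 (1.30 ± 0.12, adjusted p = 4.71e-05). The region near Ifnb1, the gene of interferon beta, the first type I interferon of the antiviral response, lies at chr4:88537205-88537944, 14.8 kb upstream of its TSS. There the fold enrichment was 4.00, 5.18, 5.45 and 6.39 in the sham and 14.5, 14, 10.8 and 11.4 in the BCAS libraries (1.29 ± 0.16, adjusted p = 0.000336). It holds none of the 20 motifs in its window. TSSs of other annotated transcripts lay closer to some of the rises than the named gene, 7.32 kb away near Gclc and 6.78 kb near Smim15.

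The 6 largest falls were smaller than the rises, and 4 of them hold AP-1. Their windows are printed with the searched motifs in capitals, TGACTCA or its reverse complement TGAGTCA for AP-1, the POU octamer in the regions near Slc8a1 and 4931408C20Rik, and an E-box in that near Pck1.
Slc8a1, chr17:81886184-81886384: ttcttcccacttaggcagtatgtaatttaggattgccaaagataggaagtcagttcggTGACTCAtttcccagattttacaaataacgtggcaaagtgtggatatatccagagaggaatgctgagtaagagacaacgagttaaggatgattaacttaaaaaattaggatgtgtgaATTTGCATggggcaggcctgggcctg
Pck1, chr2:173138670-173138870: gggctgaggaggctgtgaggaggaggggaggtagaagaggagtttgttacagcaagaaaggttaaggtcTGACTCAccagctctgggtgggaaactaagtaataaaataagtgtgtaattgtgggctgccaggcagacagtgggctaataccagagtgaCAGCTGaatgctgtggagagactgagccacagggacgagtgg
4931408C20Rik, chr1:26408121-26408321: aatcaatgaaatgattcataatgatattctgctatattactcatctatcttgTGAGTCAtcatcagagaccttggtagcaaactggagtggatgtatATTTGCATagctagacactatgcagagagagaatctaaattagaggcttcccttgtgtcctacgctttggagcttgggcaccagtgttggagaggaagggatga
Ibtk, chr9:85595888-85596088: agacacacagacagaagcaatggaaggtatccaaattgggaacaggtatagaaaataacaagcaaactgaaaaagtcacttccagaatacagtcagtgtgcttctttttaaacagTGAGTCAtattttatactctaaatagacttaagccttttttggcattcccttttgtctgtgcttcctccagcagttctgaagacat

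Near Slc8a1 (chr17:81885983-81886472, 148 kb upstream), the sodium-calcium exchanger, the fold enrichment was 7.81, 7.59, 10.1 and 9.29 in the sham and 6.92, 4.41, 3.70 and 3.52 in the BCAS libraries (log2 difference -0.94 ± 0.18, adjusted p = 0.00764), and BCAS 1 was nearest to the sham libraries. Near Pck1 (chr2:173138583-173139008, 14.3 kb upstream), the enzyme that commits carbon to gluconeogenesis, it was 12, 9.70, 9.20 and 8.71 against 6.92, 4.41, 5.24 and 4.22 (-0.93 ± 0.16, adjusted p = 0.00397). Near 4931408C20Rik (chr1:26407983-26408437) it was 7.20, 8.73, 10.6 and 6.68 against 6.12, 3.39, 3.70 and 4.92 (-0.87 ± 0.17, adjusted p = 0.00887). The groups were separate at all 3. TSSs of other annotated transcripts lay closer than the named gene at the Slc8a1 region (70.05 kb) and the 4931408C20Rik region (58.03 kb).

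Near Robo1 (chr16:72527185-72527760, 136 kb upstream), an axon guidance receptor, it was 6.80, 8.09, 9.88 and 6.10 in the sham and 5.59, 3.73, 4.01 and 3.52 in the BCAS libraries (-0.85 ± 0.15, adjusted p = 0.00538). Near Ibtk (chr9:85595779-85596224), named for its inhibition of Bruton's tyrosine kinase, it was 11.1, 7.76, 10.6 and 7.84 against 6.66, 3.73, 4.01 and 6.33 (-0.85 ± 0.18, adjusted p = 0.0193). Near Auts2 (chr5:132663849-132664315, 122 kb upstream), the only called one of its 44 regions, it was 9.60, 9.70, 11.9 and 6.97 against 8.25, 4.41, 4.32 and 4.57 (-0.84 ± 0.17, adjusted p = 0.0119). In deposited units BCAS 1 lay above sham 4 there, and only the normalized values were separate. The call at Ibtk was lost without sham 1, sham 3, BCAS 2 or BCAS 3 (adjusted p = 0.0797, 0.0624, 0.0619 and 0.0529), within GC bins (0.0521) and with the number of peaks as a covariate (0.0541), and that at Auts2 without sham 3 (adjusted p = 0.0524). With the class of read GC content as a covariate all 6 falls missed the threshold, at log2 differences from -0.88 to -0.59 and adjusted p from 0.0573 to 0.157, while all 6 rises passed it.

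**Figure D5:**
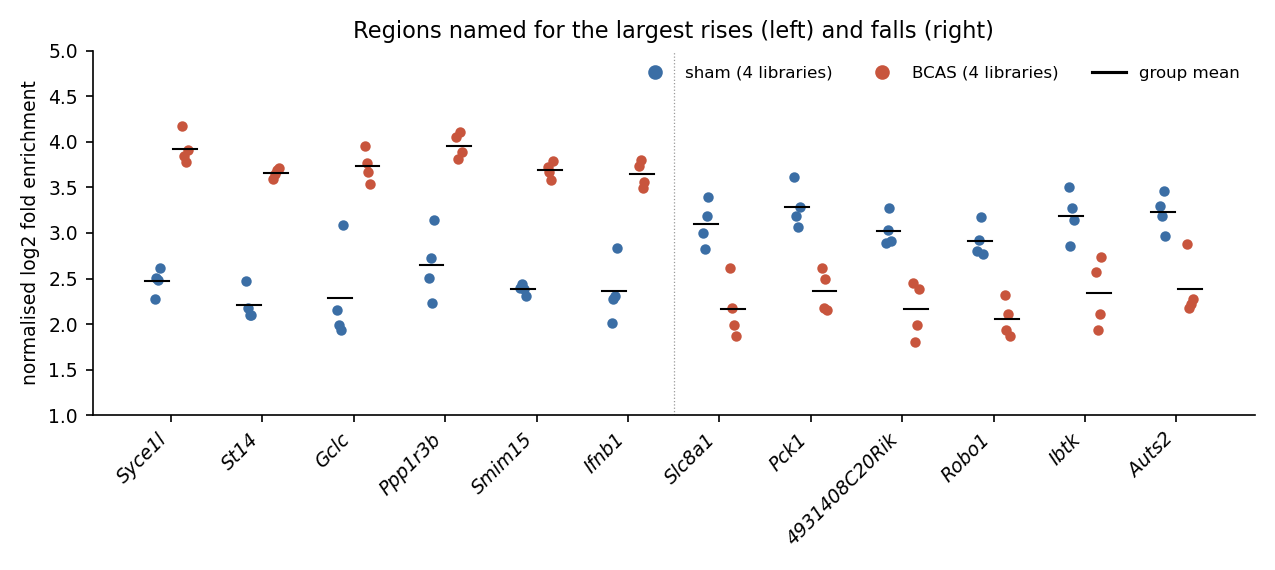
Normalized log2 fold enrichment (y axis) in each sham (blue) and BCAS (red) library at the 6 regions with the largest rises and the 6 with the largest falls, named by the nearest gene; black lines are group means (n = 4). At each of the 12 regions the groups do not overlap, which the choice of the regions required.

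After the regions near Syce1l and St14, the 4 largest rises among PU.1 holders lay near Cd163, Map4, Adgrl2 and Smim15, and were named after their values were seen. Near Cd163 (chr6:124273184-124273677, 31.2 kb upstream), the hemoglobin scavenger receptor of perivascular and other macrophages, the fold enrichment was 6.00, 4.53, 9.54 and 8.42 in the sham and 18.6, 15.9, 15.1 and 15.8 in the BCAS libraries (1.26 ± 0.18, adjusted p = 0.000843). Near Map4 (chr9:109914196-109914710), a microtubule-associated protein, a window with PU.1 and NF-kB had 6.80, 5.82, 5.79 and 7.26 against 17.2, 14.6, 15.1 and 13.6 (1.24 ± 0.14, adjusted p = 0.00016). Near Adgrl2 (chr3:148248581-148249032, 574 kb downstream), an adhesion receptor of the latrophilin family, it was 4.80, 4.85, 7.5 and 7.26 against 13.3, 14.3, 13.9 and 13.7 (1.21 ± 0.16, adjusted p = 0.000579). A second region toward Smim15 (chr13:107944826-107945281), with PU.1 and NR4A, had 6.40, 6.79, 7.16 and 6.74 against 13.2, 15.6, 15.6 and 14 (1.10 ± 0.12, adjusted p = 0.00016). All 4 had every BCAS library above every sham library.

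Few genes had several called neighbours. At least 3 higher regions were nearest to Gm826 (3 of its 6), Maf (3 of 17) and Med13l (3 of 13). At least 3 lower ones were nearest to Slc8a1 (3 of 4) and Fat4 (3 of 16). These genes were named after their values were seen, out of 6892 nearest genes. Of all regions tested, 1.44% were higher and 0.577% lower. Those of Maf, a transcription factor expressed in macrophages, microglia and some interneurons, lay 56.7, 151 and 293 kb downstream, at log2 differences of 0.77, 0.71 and 0.64. For Slc8a1 they were -0.65, -0.94 and -0.64.

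Of the 177 shared distal regions nearest to genes of the 8 lists, 6 (3.39%) were higher and 0 lower by limma, against 1.44% and 0.577% of all regions tested; at an unadjusted p under 0.05 they were 19 and 10. None of the 27 regions of excitatory neuron genes, 9 of oligodendrocyte genes or 33 of endothelial and mural genes was called, and their median log2 differences were 0.08, 0.09 and -0.07. At an unadjusted p under 0.05, 5 regions of excitatory neuron genes were higher and 1 of endothelial and mural genes was lower. Among 10 regions of microglial genes 1 was called: of the 7 nearest to Sall1, a factor of microglial identity, that at chr8:89404238-89404768 (360 kb upstream) rose from 5.60, 9.70, 9.54 and 9.58 in the sham to 15.5, 17.3, 13.3 and 14.4 in the BCAS libraries (0.84 ± 0.15, adjusted p = 0.00481). The other 6 regions of Sall1 and the single ones near Cx3cr1, Tmem119 and Spi1 were not called, and the median over the 10 was 0.12. Of 14 regions of inhibitory neuron genes, 2 near Dlx2 rose, by 0.45 ± 0.11 (adjusted p = 0.0449) and 0.64 ± 0.14 (adjusted p = 0.0241). Of 57 astrocyte regions, 1 lying 91.1 kb upstream of Slc1a3, a glutamate transporter, rose by 1.12 ± 0.15 (adjusted p = 0.000621). Another, 521 kb downstream of Gja1, the gap junction protein connexin 43, rose by 0.53 ± 0.11 (adjusted p = 0.0128). The median over the astrocyte list was -0.03. Of 22 regions of activity-regulated genes the one near Egr3 rose by 0.55 ± 0.12 (adjusted p = 0.0192), and the median was -0.03.

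The called regions differed in place as well as in motif. The higher ones lay at a median of 34.3 kb from the nearest protein-coding TSS and the lower ones at 115 kb, with 66.5 kb over all shared distal regions. These sets also differed in median GC content (53.2% and 46.8%), and whether place went with GC content was not tested. The lower set numbered 108 with GC bins and 15 with the class of read GC content as a covariate. Their strength was ordinary, with median mean percentiles of 69.0 and 71.2 against 67.6, and their summits varied between libraries by a median SD of 27.1 and 27.6 bp.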

How the data were processed

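Per the labels, nuclei of the right cerebral cortex of 4 sham and 4 BCAS mice were used for ATAC-seq. Per the submitters' processing notes the authors used Trim Galore, Bowtie2 (version 2.3.4.3), SAMtools (version 1.9) and MACS2 on mm10; MACS2 options and any Tn5 shift are not given there or in the study's methods. Each deposited peak has a fold enrichment over background (a ratio), -log10 p and q values, a score that is 10 times -log10 q rounded down, and a summit. The files give no read counts per region, so the depth behind single values is not known here; the number of peaks per library was 107391 to 160720, and no peak had a -log10 q under 1.31.

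Regions were merged and annotated with GENCODE M21 basic transcripts in Python 3.11.15. Log2 fold enrichment was quantile normalized and tested with limma 3.58.1 (R 4.3.3, trended variance, BCAS against sham, no covariate), tested on simulated data before use. Motifs were searched within 100 bp of the median summit, and copies with BLAST 2.17.0. Gene and motif lists and the members were chosen with earlier results of these data known. Named were the 6 strongest members without a mitochondrial match and the strongest with one, the 6 largest called rises and falls with separate groups, the strongest member of each gene list and of 8 motifs, the member farthest from a TSS, the longest chain and the 10 genes with the most members; regions of chromosome 18 were not named. Each library came from 1 mouse by the study's count of animals.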

Additional observations from a re-analysis of the deposited data

Results flagged for a closer look

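In 72 groups of 4 libraries examined with Dixon's ratio (95% critical value, which chance passes in about 1 of 20 groups), 2 held a library far from the other 3. At the region near Rab10, first among members without a mitochondrial match, sham 3 had a normalized log2 fold enrichment of 4.97 and the other sham libraries 5.01 each, since quantile normalization gives the top rank of every library the same value. At the region near Auts2 that fell, BCAS 1 had 2.88 and the other BCAS libraries 2.18 to 2.27.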

How the results depend on the processing

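The number of shared distal regions stayed within 1.5 times under every rule tried, from 16617 (midpoint more than 10 kb from any TSS) to 27250 (transcripts of protein-coding genes only), and was 21597 to 23344 when any 1 library was left out. Their mean median percentile of 70.02 became 51.1 when only regions with a peak in every library were ranked. Of the 21558, the number higher and lower in BCAS (325 and 202) became 35 and 3 on the percentile scale, 603 and 431 with -log10 q, 40 and 6 with the length covered by peaks, 109 and 15 after adding the class of read GC content as a covariate, and 92 and 5 with GC bins and read GC class together, a fit added after seeing the data; GC bins alone gave 108 lower. Leaving out 1 library gave 205 to 388 higher and 57 to 274 lower. In the same fits (counted by motif after seeing the data) PU.1 holders that rose numbered 10, 75, 3, 19 and 19 (34 to 58 with 1 library left out), and AP-1 holders that fell 2, 130, 1, 3 and 2, with 34 under GC bins (16 to 83 with 1 library left out). The 325 and 202 calls, chosen on the same libraries and so likely to keep their sign, did so wherever a fit gave them a value, except on the length covered, where 320 and 180 did. No region named for its rise or fall reversed, but on that length all 12 missed the threshold (adjusted p from 0.0538 to 0.976) and on the percentile scale 9 did. The cause of these changes was not tested. The main fit did not pair libraries by replicate number. Deviations of same-numbered libraries correlated at -0.0408, -0.0215, -0.0335 and 0.0714, which cannot show how the mice were matched. The fit with the replicate block gave 354 higher and 250 lower, with 52 PU.1 and 77 AP-1 holders. Without read counts, small changes at weak peaks cannot be weighed by depth.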
